A study of Mus musculus with 12 samples.

Results

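Irf7 encodes interferon regulatory factor 7, and its transcripts are described here as they were listed in RNA sequencing of BV-2 cells, an immortalised mouse microglial line. All 16 distinct events listed under the name Irf7 were taken from the catalogues of 12 libraries. It is 1 gene of the 14275 listed in any of them and was chosen by its number of events in treated against control libraries, so that those values are given as a description with no test. The 4 groups of 3 libraries were control cells and cells given lipopolysaccharide (LPS, a cell wall component of bacteria that is sensed by the receptor TLR4), nicotinamide mononucleotide (NMN, a precursor of NAD), or LPS+NMN. The sources used here do not give the dose, the time or whether replicates were separate cultures. The p-values therefore cover the variation among these libraries alone, and it may be technical. All groups share the 1 line, with no named genetic change. A catalogue is a list of first exons, last exons, skipped exons and alternative exon ends, each either listed or not listed. Read counts, levels and depth are not part of it, so a listing is not a level. In these bulk samples fewer cells using a transcript and less of it per cell cannot be told apart.

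IRF7 is a transcription factor of the type I interferon response. In most resting cells its gene is weakly active and is raised by interferon through a complex that contains IRF9. Kinases downstream of nucleic acid sensors and Toll-like receptors phosphorylate the protein, which then enters the nucleus and switches on interferon genes, so that IRF7 acts as an amplifier of the response. Like its relatives it carries a DNA-binding domain at the N-terminus and, towards the C-terminus, a region through which it is activated and pairs with other factors.

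The gene lies on chromosome 7, from 141262706 to 141266481 on the minus strand of GRCm38 in GENCODE M21, which annotates 13 transcripts for it, 4 of them protein coding, 6 with a retained intron, 1 a target of nonsense-mediated decay and 2 others without a coding sequence. The submitters' processing notes name GRCm38, but the Irf7 positions in the catalogues are not those of GRCm38 in M21, and the files name no assembly. Of 11 distinct Irf7 exon intervals in the files, 10 had the length and spacing of an annotated exon after a single shift of 420087 bases, against 1 for the next best shift, so each exon could be named by its number in the coding transcript of 10 exons, ENSMUST00000026571, called the reference transcript here. The catalogues differed in the middle of the gene, in exons 5, 6 and 7. These exons follow the part that encodes the DNA-binding domain (codons 132 to 151, 152 to 206 and 206 to 237 of 457). Their sequences are shown because every skipping event of Irf7 removes 1 or more of them. Capitals in exon 6 mark the 67 bases kept in its short form, which starts at an acceptor site 96 bases further in.
Exon 5, 59 bases, chr7:141264725-141264783: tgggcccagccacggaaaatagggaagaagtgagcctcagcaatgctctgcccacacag
Exon 6, 163 bases, chr7:141264493-141264655: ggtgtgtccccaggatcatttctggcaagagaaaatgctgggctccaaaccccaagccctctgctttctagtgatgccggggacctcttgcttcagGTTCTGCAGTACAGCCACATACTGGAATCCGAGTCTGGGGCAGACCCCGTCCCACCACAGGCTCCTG
Exon 7, 93 bases, chr7:141264223-141264315: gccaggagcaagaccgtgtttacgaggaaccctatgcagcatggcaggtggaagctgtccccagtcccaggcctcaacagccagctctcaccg

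The events of a catalogue give the exon ends that were joined in its transcripts. Between exon 4 and exon 8, 12 joins were listed in at least 1 library, which are all 12 that these exons allow in order, counting the long and short forms of exon 6 apart as acceptors but not as donors. The 5 joins of neighbouring exons were in all 12 libraries. The other 7 skip at least 1 exon. Of these, 2 were in all 12 libraries and 5 in treated libraries only. The 15 last bases of the upstream exon (lower case) and the 15 first bases of the downstream exon (capitals) are shown for the 7 skipping joins. They were put together from annotated exons on the minus strand of GRCm38 and were not read from the libraries.
Exon 6 to exon 8, intron chr7:141264049-141264492: caccacaggctcctgAGCGCAGCCTTGGGT
Exon 4 to exon 8, intron chr7:141264049-141265074: agcttggatctactgAGCGCAGCCTTGGGT
Exon 4 to short exon 6, intron chr7:141264560-141265074: agcttggatctactgGTTCTGCAGTACAGC
Exon 4 to exon 7, intron chr7:141264316-141265074: agcttggatctactgGCCAGGAGCAAGACC
Exon 5 to exon 7, intron chr7:141264316-141264724: gctctgcccacacagGCCAGGAGCAAGACC
Exon 5 to exon 8, intron chr7:141264049-141264724: gctctgcccacacagAGCGCAGCCTTGGGT
Exon 4 to long exon 6, intron chr7:141264656-141265074: agcttggatctactgGGTGTGTCCCCAGGA
Each of the 7 introns begins with gt and ends with ag in the unspliced annotated transcript ENSMUST00000210506. GENCODE M21 annotates all 5 joins of neighbouring exons and 3 of the 7 skipping joins: exon 6 to exon 8 (ENSMUST00000097952), exon 4 to exon 8 (ENSMUST00000123525) and exon 4 to short exon 6 (ENSMUST00000148414 and ENSMUST00000209899). The other 4 are not annotated there, although each uses annotated exon ends.

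**Figure D1:**
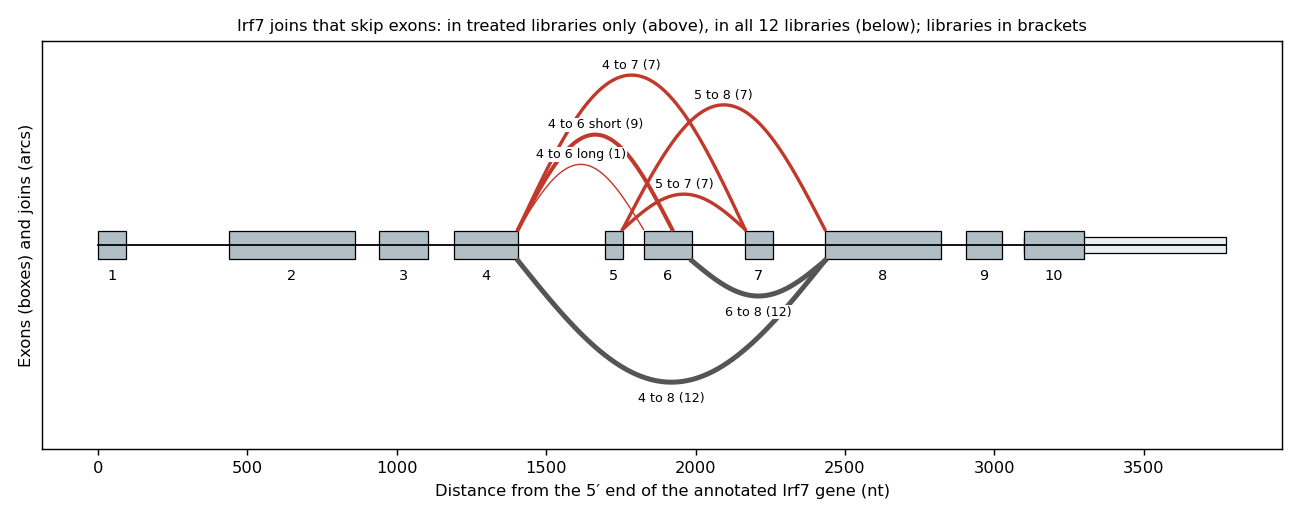
Exons of the reference Irf7 transcript (boxes, numbered) along the distance in nucleotides from the 5′ end of the annotated gene, with the long last exon as a pale box. Arcs are joins that skip exons, below the line for the 2 listed in all 12 libraries and above it for the 5 listed in treated libraries only, with the number of libraries in brackets and in the line width.

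Among the joins that control lacked, that of exon 4 to short exon 6, which leaves out exon 5, was listed in all 9 treated libraries and in 0 of 3 control libraries. It occurs in ENSMUST00000209899, the transcript annotated as a target of nonsense-mediated decay. Exon 4 was joined to exon 7 in 7 treated libraries (LPS 1 and 3, NMN 2 and 3, and all 3 of LPS+NMN). Exon 5 was joined to exon 8 in 7 as well (LPS 2 and 3, NMN 1 and 2, and all 3 of LPS+NMN), and to exon 7 in another set of 7 (LPS 1 and 2, all 3 of NMN, and LPS+NMN 2 and 3). LPS 2 alone joined exon 4 to long exon 6. The first 4 of these joins were each found in all 3 treated groups. Of the genes listed in all 12 libraries, 0.0921% (10 of 10858) had a skipping join in all 9 treated and no control library, and 0.111% had one in all 3 control and no treated library. Nothing is read from the place of Irf7 among the 10, since it was chosen on that contrast.

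Skipping joins numbered 2 in each of the 3 control libraries. They numbered 5, 6 and 5 in LPS replicates 1 to 3, 5, 6 and 5 in NMN, and 5, 6 and 6 in LPS+NMN. The lowest treated library thus listed 3 more than any control, and the 3 treated groups overlapped. Mean numbers were 2 ± 0 in control, 5.33 ± 0.577 in both LPS and NMN, and 5.67 ± 0.577 in LPS+NMN (SD, n = 3). No treated library held all 5 of the joins that control lacked: LPS 2, NMN 2, LPS+NMN 2 and LPS+NMN 3 held 4, and the other 5 held 3.

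**Figure D2:**
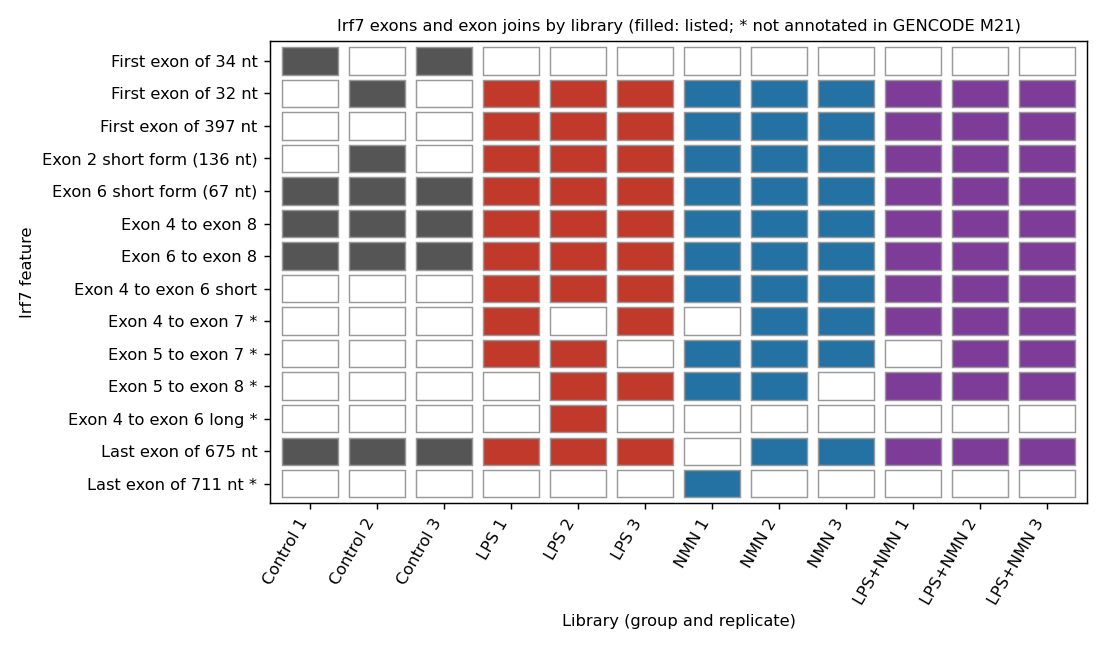
Irf7 first exons, exon forms, skipping joins and last exons (rows, with lengths in nucleotides) by library (columns, coloured by group). A filled cell is a listed feature, an asterisk marks one not annotated in GENCODE M21. The first exon of 397 nucleotides and the join of exon 4 to short exon 6 fill all 9 treated columns and no control column.

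At the start of the gene, all 12 libraries listed a first exon that ends at the annotated donor of exon 1. It was 32 bases long in control replicate 2 and in all 9 treated libraries, and 34 bases long in control replicates 1 and 3, a difference of 2 bases at the 5′ end. The lengths are those of exon 1 in ENSMUST00000106023 and ENSMUST00000146373 (32) and in ENSMUST00000097952 (34). The starts lie 3 bases and 1 base inside the start given by RefSeq (GRCm38.p6), and exon 1 of the reference transcript begins further upstream and covers the bases shown next. A match to the TATA box letters TATAAA stands at position -29 from the RefSeq start and is shown in capitals within 30 bases on the minus strand.
Irf7, chr7:141266436-141266465: tgcccgaagtacTATAAAagcactggcacc
On either strand, 12.4% of 32851 RefSeq promoters hold TATAAA in the 250 bases before the start. The other motifs searched in the same 250 bases had no match in Irf7. They were a motif of the interferon response type, held by 2.98% of these promoters, and a further motif, held by 7.02%. The TATAAA match is a description and not a site, and a missing match does not show that a site is absent. Control of Irf7 by interferon was not tested.

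A further first exon of 397 bases was listed in all 3 LPS, all 3 NMN and all 3 LPS+NMN libraries and in 0 of 3 control libraries. It begins 25 bases inside exon 2 and keeps the start codon, and its length and position are those of the first exon of ENSMUST00000209899, which also has the join of exon 4 to short exon 6. Among the genes listed in all 12 libraries, 0.313% had a first exon in all 9 treated and no control library, and 0.138% had one in all 3 control and no treated library. Of the 10858, 2 had both a first exon and a skipping join listed this way, Irf7 and Gbp3, an interferon-induced guanylate-binding GTPase. Irf7 was chosen on treated against control libraries, so nothing is read from its place among the 2.

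Exon 2 had a full form of 422 bases and a short form of 136 bases that ends at a donor inside the exon, as in the non-coding transcript ENSMUST00000146373. The short form lacks 286 bases, among them the start codon, which follows 408 bases of untranslated sequence. The pair was listed in control replicate 2 and in all 9 treated libraries. These are the same 10 libraries that listed the first exon of 32 bases. The donors are shown with the last 10 exon bases in capitals.
Exon 2 full form, chr7:141265603-141265632: CTGAAGTGAGgtgagaacatgtctaccctg
Exon 2 short form, chr7:141265889-141265918: CTGAACCTAGgtgaccacaagttctcaaac
Exon 6 had both its long and its short form in all 12 libraries. Its acceptors are shown with the first 10 exon bases in capitals.
Exon 6 long form, chr7:141264646-141264675: cactatgctgtctattacagGGTGTGTCCC
Exon 6 short form, chr7:141264550-141264579: ccggggacctcttgcttcagGTTCTGCAGT

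At the 3′ end each library listed 1 last exon. It was 675 bases long, as in ENSMUST00000106023, in 11 libraries and 711 bases in NMN replicate 1. The shorter last exon of the reference transcript, 198 bases, was not listed in any library. The annotated gene overlaps the 3′ end of Phrf1, a neighbour on the plus strand, by 45 bases, and in 2 libraries a listed last exon of Phrf1 reached into that of Irf7. The sources used here do not say whether the library kit kept the strand. Retained introns of Irf7 numbered 0 in every library, although 6 of its annotated transcripts hold one. A join of exon 2 to exon 5, as in ENSMUST00000131399, was in 0 libraries.

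Counted by type and position, control libraries held 7, 9 and 7 Irf7 events, LPS libraries 15, 16 and 16, NMN libraries 16, 16 and 15, and LPS+NMN libraries 16, 16 and 16. The means were 7.67 ± 1.15, 15.7 ± 0.577, 15.7 ± 0.577 and 16 ± 0 (SD, n = 3), and these are the values by which the gene was chosen. Every treated library was above every control library, and the treated groups overlapped. By class, control libraries had 1 first exon, 1 last exon, 1 singly skipped exon, 2 runs of skipped exons and 2 or 4 alternative ends. Treated libraries had 2 first exons, 1 last exon, 5 singly skipped exons, 3 or 4 skipped runs and 4 alternative ends. The 5 singly skipped exons are exon 7, both forms of exon 6, and exon 5 listed once in exact and once in approximate form. First exons that share their joined end counted as 1 event, and so did last exons. Of the 16 events so counted, 7 were in all 12 libraries, 6 in all 9 treated and no control library, and 0 in control alone. Told apart by both ends, the first exon of 34 bases was in control replicates 1 and 3 alone. Among the genes listed in all 12 libraries, 0.525% had an event in all 9 treated and no control library and 0.58% one in all 3 control and no treated library. Irf7 had 6 such events, 6 other genes had 2 and 50 had 1. Nothing is read from this order, since Irf7 was chosen on that contrast. Its 6 events overlap, as they count exon 5 in exact and approximate form and exon 6 in both forms. Only 1 skipping join and 1 first exon of Irf7 were listed this way.

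The same skipped exon can be listed with several pairs of flanking exons, and no 2 lines of Irf7 in 1 library were identical. Told apart by their flanks, a way of counting chosen after seeing the data, control libraries held 9, 10 and 9 Irf7 events and LPS libraries 23, 27 and 24. NMN libraries held 24, 29 and 23, and LPS+NMN libraries 24, 29 and 29. Mean numbers were 9.33 ± 0.577 for control, 24.7 ± 2.08 for LPS, 25.3 ± 3.21 for NMN and 27.3 ± 2.89 for LPS+NMN (SD, n = 3). The 5 treated libraries with 3 added joins had 23 or 24 events and the 4 with 4 added joins had 27 or 29. The size of the whole catalogue did not separate the groups. It was 51039 to 55787 distinct events in control and 50784 to 54353 in treated libraries. The largest was control replicate 1, with 7 Irf7 events, and the smallest NMN replicate 1, with 16. Summed events of 5 oligodendrocyte markers ran from 9 to 13 in control and from 4 to 8 in treated libraries, and those of 13 microglia and macrophage markers from 45 to 52 and from 37 to 47. The part of these in the Irf7 events was not tested.

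**Figure D3:**
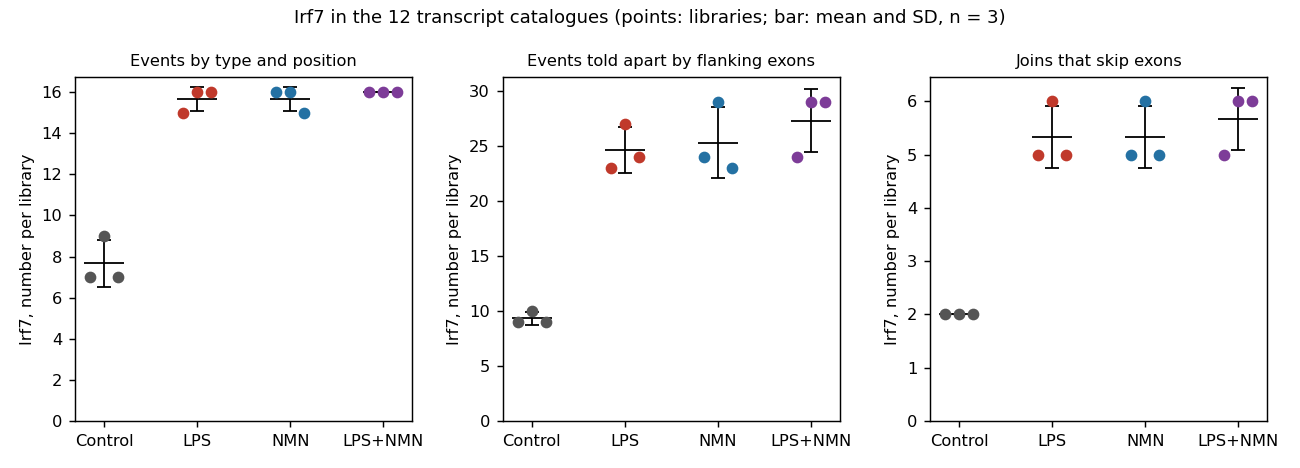
Irf7 events by type and position, events told apart by their flanking exons, and joins that skip exons (vertical axes, number per library) by group. Points are libraries, bars the mean and SD of 3. In each panel the 9 treated libraries lie above the 3 control libraries, at 15 or more against 9 or fewer, 23 or more against 10 or fewer, and 5 or more against 2.

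The comparisons between treated groups were not used in choosing the gene. In LPS+NMN against LPS, the comparison that the series' design text names, Irf7 had 16 ± 0 and 15.7 ± 0.577 events by type and position (SD, n = 3), a log2 difference of 0.03 ± 0.14 (SE) with a limma adjusted p of 1. NMN against LPS gave 15.7 ± 0.577 in both and a log2 difference of 0 ± 0.14 (limma adjusted p = 1). LPS+NMN against NMN gave 0.03 ± 0.14 (limma adjusted p = 1). No difference in Irf7 events between treated groups was detectable, and a p that misses the threshold does not show that the groups are alike. Each treated library held 15 or 16 of the 16 events found in any library. This count could therefore hardly differ between treated groups. By limma, 0% of 11671 genes were called in each of these 3 comparisons. At an unadjusted p under 0.05 there were 521, 577 and 531 genes, and limma without trend and robust moderation called 6 in each.

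The reading frame of each join was computed from the annotated start codon with all other exons as in the reference transcript, since a catalogue does not say which joins lie in 1 transcript. With its 10 exons the frame runs for 457 codons. The short form of exon 6 leaves 425 codons and the loss of exon 7 leaves 426, both in frame, and both forms were in all 12 libraries. Joining exon 4 to exon 8 removes 315 bases and leaves 352 codons in frame, and it too was in all 12. Of the 5 joins that control lacked, 1 keeps the frame. It joins exon 4 to exon 7, removes 222 bases and leaves 383 codons. The join of exon 4 to short exon 6, listed in all 9 treated libraries, removes 155 bases and meets a stop codon in exon 8 after 237 codons, 349 bases before the last join. Joining exon 5 to exon 8 removes 256 bases and stops after 159 codons. Joining exon 5 to exon 7 removes 163 bases and stops after 190, and that of exon 4 to long exon 6 removes 59 bases and stops after 154. All 4 shifted frames keep exons 3 and 4, which hold codons 5 to 132. These are computed frames, and no protein was measured.

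**Figure D4:**
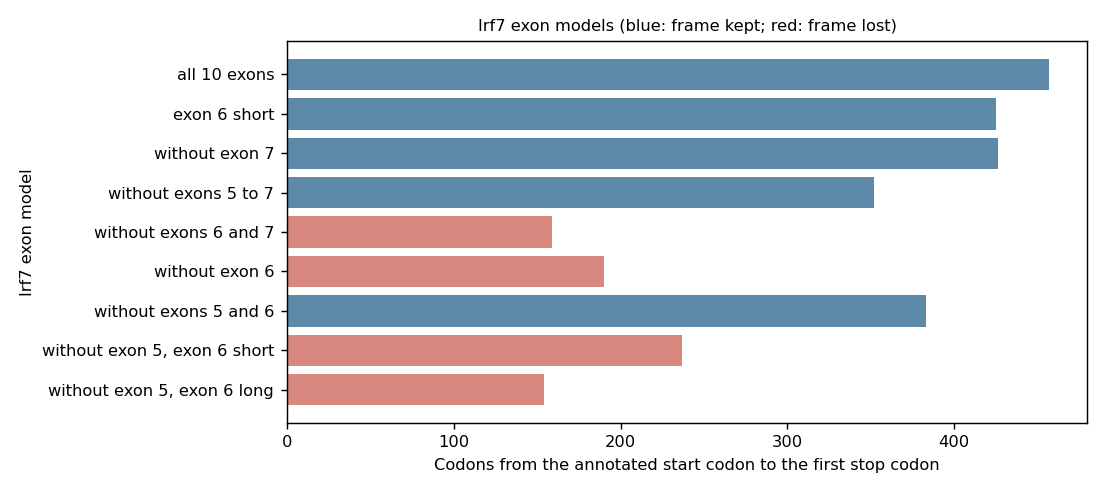
Codons from the annotated start codon of Irf7 to the first stop codon (horizontal axis) for 9 exon models (rows), each with all other exons as in the reference transcript. Blue bars keep the annotated frame and end after 352 to 457 codons, red bars lose it and end after 154 to 237.

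The other genes of the pathway were read against the whole table. Against control, limma called 0.257% of 11671 genes higher and 0.0428% lower in LPS, 0.223% and 0.00857% in NMN, and 0.283% and 0.0514% in LPS+NMN. At an unadjusted p under 0.05 there were 872, 817 and 870 of the 11671 genes in these comparisons. Of the 8 other interferon regulatory factors it called 0 in these comparisons and in those between treated groups, and 0 had an unadjusted p under 0.05. Their median log2 difference to control was 0.02 for LPS, -0.05 for NMN and -0.26 for LPS+NMN, against 0 over all genes. For Irf3, which is phosphorylated by the same kinases and pairs with IRF7, control libraries held 8 ± 0 events, LPS and NMN libraries 8.67 ± 1.15 each and LPS+NMN libraries 7 ± 1.73 (SD, n = 3). Irf9, the DNA-binding part of the complex that raises Irf7, had 5.67 ± 3.06, 4.67 ± 1.15, 5.33 ± 1.53 and 4 ± 0 over control, LPS, NMN and LPS+NMN. Irf1 had 3.33 ± 0.577 in control and 2.67 ± 1.15 to 3.67 ± 1.15 in treated groups, Irf2 4 ± 1.73 to 5.67 ± 2.89, Irf5 5.33 ± 0.577 to 7 ± 2 and Irf8 2.67 ± 0.577 to 3.33 ± 0.577 over the 4 groups. Irf4 had 3 ± 1 in control and 2 ± 0 to 2.67 ± 0.577 in treated libraries.

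Of 25 genes upstream of IRF7 (sensors, adaptors and kinases), 23 could be tested and limma called 0 in LPS, NMN or LPS+NMN against control, with 5, 4 and 3 at an unadjusted p under 0.05 and median log2 differences of 0.02, 0.13 and 0.14. Of 14 described regulators of IRF7, 11 were tested and 0 called by limma (2, 1 and 2 at an unadjusted p under 0.05, median log2 differences -0.11, 0 and 0). Of 10 genes of the interferon receptor and its signalling 8 were tested and 0 called by limma (1, 0 and 0 at an unadjusted p under 0.05, medians 0.06, 0.16 and 0.17). Tlr3, a receptor for double-stranded RNA, had 2.33 ± 0.577 events in control and 5.33 ± 0.577, 5.67 ± 1.15 and 4.67 ± 1.15 in LPS, NMN and LPS+NMN (limma adjusted p = 0.12, 0.112 and 0.229). In the same order of groups, Ikbke, a kinase of IRF7, had 2.67 ± 1.15, 5.33 ± 1.15, 7.33 ± 2.52 and 3.33 ± 1.15. Ly96, the partner of TLR4, had 4 ± 1.73, 7.67 ± 1.53, 5.67 ± 2.89 and 8 ± 1.73. Neither of these nor Ddx58, the RNA sensor RIG-I (4.67 ± 0.577, 7.67 ± 3.06, 6 ± 1 and 7.33 ± 2.52), passed the test. Socs1, an inhibitor of interferon signalling, was in 0 control, 3 LPS, 1 NMN and 1 LPS+NMN library. Usp18 had 4 ± 2 events in control and 4.67 ± 1.15 in LPS, and Stat2 2 ± 0 and 2.67 ± 1.15. Among the regulators, Oasl1, which limits translation of Irf7, had 5.67 ± 2.08 events in control and 8.67 ± 3.51 in LPS. Eif4ebp2, a repressor of translation that acts on Irf7 mRNA, had 5 ± 0, 2.67 ± 0.577, 3 ± 0 and 5 ± 1 over control, LPS, NMN and LPS+NMN (limma adjusted p = 0.163, 0.36 and 1 against control). Eif4ebp1 had 2 ± 0 in control and 3 ± 0 in LPS, and Rbck1 5.67 ± 2.52 and 3.67 ± 1.53.

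Of 36 targets of interferon and IRF7, 29 were tested, and limma called 4 higher in LPS against control (Ifit3b, Mx2, Oasl2 and Zbp1), 3 in NMN against control (Ifit3b, Oasl2 and Zbp1) and 2 in LPS+NMN against control (Ifit3b and Zbp1). It called 0 lower, and 0 in either direction between treated groups, where 5, 2 and 3 had an unadjusted p under 0.05 in LPS+NMN against LPS, NMN against LPS and LPS+NMN against NMN. Against control, 12, 10 and 12 of the 29 had an unadjusted p under 0.05 for LPS, NMN and LPS+NMN. The mean log2 value was higher in 25 and lower in 1 of the 29 for LPS, higher in 24 and lower in 3 for NMN, and higher in 20 and lower in 4 for LPS+NMN. Over all 11671 genes it was higher in 4598 and lower in 5302 for LPS, 4749 and 5067 for NMN, and 4773 and 5089 for LPS+NMN. The median log2 difference of the targets was 0.38, 0.28 and 0.14, against 0 over all genes in each. Zbp1, a sensor of nucleic acids in the Z form, had 2 events in each of the 9 treated libraries and was in no control library (limma adjusted p = 0.00618, 0.00715 and 0.00676 in LPS, NMN and LPS+NMN). Ifit3b, an interferon-induced gene with a close relative in Ifit3, so that reads may have been shared, had 2 or 3 in each treated library and none in control (limma adjusted p = 0.0094, 0.00715 and 0.00676). Zbp1 and Ifit3b, called in all 3 comparisons against control, entered the test through treated libraries alone. Their p-values compare listed with not listed and are not taken as support. Mx2, an antiviral GTPase, had 2, 3 and 2 in control, 8, 6 and 6 in LPS, 4, 3 and 4 in NMN, and 4, 5 and 4 in LPS+NMN (limma adjusted p = 0.0107, 0.545 and 0.244 against control). Its LPS libraries lay above all others. Oasl2, of the oligoadenylate synthetase family, had 3 in each control library, 6, 9 and 7 in LPS, 10, 7 and 7 in NMN, and 5, 4 and 5 in LPS+NMN (limma adjusted p = 0.042, 0.0207 and 0.478 against control). Gbp3 (2 ± 0, 7 ± 4.36, 6.33 ± 2.31 and 7.33 ± 2.08) and Ifi44 (1.33 ± 1.15, 6.67 ± 1.53, 6.67 ± 2.08 and 5.67 ± 1.15) did not pass. The 3 comparisons share the control libraries. Ifnb1, Ifna2 and Ifna4, interferon genes that IRF7 drives, were in 0 of 12 catalogues. With at least 5 events in 3 libraries required, which leaves out Zbp1 and Ifit3b, 0 of the targets were called in any comparison, and leaving out control replicate 3 or LPS replicate 2 left 2 called in LPS against control.

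By a fixed rule, 5010 genes were compared with Irf7. They were listed in all 12 libraries, with a mean of at least 4 events and no predicted, clone or Riken name. Those most like Irf7 were sought by Pearson's correlation of log2(events + 1) over the 12 libraries. The points share the control libraries and the group differences, so the values are a description. Dhx58, which encodes the RNA helicase LGP2, came first (r = 0.937), with 3, 4 and 3 events in control, 6, 6 and 6 in LPS, 5, 6 and 6 in NMN, and 5, 6 and 7 in LPS+NMN. Fbxl17, a subunit of a ubiquitin ligase, followed (r = 0.912, with 3 events in each control and 4 to 6 in each treated library), then Hpgds, a prostaglandin D synthase (r = 0.905), with means of 4, 11.3, 10.3 and 14 in control, LPS, NMN and LPS+NMN. Pilra, an inhibitory receptor of myeloid cells (r = 0.892), and Tlr3 (r = 0.85) came after it. Dhx58 also gained a skipping join in all 9 treated and no control library. Of the nearest listed genes on chromosome 7, Phrf1 had 8 to 10 events in control and 7 to 10 in treated libraries, Rassf7 6 to 9 and 2 to 6, Lmntd2 2 in every library, Deaf1 9 to 17 and 7 to 15, and Tmem80 10 to 14 and 8 to 22. Cdhr5 was in LPS replicate 2 alone.

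The labels call the cells macroglia. Of 13 markers of microglia and macrophages 9 were in all 12 catalogues, among them Csf1r, Aif1, Itgam and Spi1. Of 5 astrocyte markers 4 (Aqp4, Aldh1l1, Slc1a3 and Gja1) were in none. Of the other lists, Mbp among 5 oligodendrocyte, Syn1 and Tubb3 among 5 neuronal, and Pecam1 and Cdh5 among 4 fibroblast and endothelial markers were in all 12, and none of 6 T and B cell markers was in all 12. Summed events of the microglial list ran from 37 to 52 per library and of the astrocyte list from 0 to 2. Among the microglial markers P2ry12 was in 2 control and 0 treated libraries, C1qa in 3 control and 1 treated, and Cx3cr1 in 0 control and 4 treated. Summed T and B cell markers were 4 in each control library and 0 to 4 in treated ones.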

How the data were processed

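The 12 files, 1 per library, are lists of transcript events as deposited by the authors. Per the file headers a line holds the event's identifier and type, the gene, its position, the exon pattern and the strand. GRCm38, HOMER, BWA 0.7.12 and MACS2 2.1.0 are named in the submitters' processing notes, but the Irf7 positions in the files are offset from GRCm38, and the sources used here do not say which program wrote the lists. Groups and replicate numbers came from the sample titles.

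Lines of the form without the event were left out. First and last exons were told apart by type, gene and pattern and other events by type, start and end. Joins were read from the patterns. A skipping join was taken only from events in exact form, all 173 of which had a partner line starting at the same flank. Sequences are from GENCODE M21 transcripts and RefSeq promoters (GRCm38.p6). The number of events per gene was tested with limma 3.58.1 in R 4.3.3 on log2(events + 1), with trend and robust moderation, in 1 model of 4 groups with 8 residual degrees of freedom, on 11671 genes with at least 1 event in 3 libraries and not constant, with Benjamini-Hochberg adjustment at 0.05. The fit was also run on shuffled values with known changes put into some genes, and the outcome is not reported here. Depth is unknown, so no counting error is attached to a listing. The gene, its lists and the naming rule were chosen with earlier results of these data known. That rule takes Irf7, the 5 genes most like it, 3 listed neighbours a side, the other IRF genes, pathway genes past the test and up to 4 of each list with the largest difference after LPS. Some genes that it takes are not reported here. Same-numbered libraries did not deviate together (18 pairs, mean r = -0.00237). The alternatives tried are in the closing section.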

Additional observations from a re-analysis of the deposited data

How the results depend on the processing

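Irf7 had more events in each treated group than in control under every way of counting tried. The difference to control, 8, 8 and 8.33 events for LPS, NMN and LPS+NMN, became 1 in each with first and last exons only, 7, 7 and 7.33 with splicing events only and again with approximate forms left out, and 15.3, 16 and 18 when repeated lines were counted or when splicing events were told apart by their flanking exons, the latter chosen after seeing the data. With 1 library left out it ran from 7.67 to 8.67 in LPS and in NMN and from 8 to 9 in LPS+NMN. Matching first and last exons by start and end moved none of these.

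Between treated groups Irf7 was not called in any of 18 alternatives per comparison, and limma's lowest adjusted p was 0.927 in LPS+NMN against LPS, 0.947 in LPS+NMN against NMN and 1 in NMN against LPS. The replicate block gave log2 differences of 0.0292, 0.0292 and 0 and changed no call of Irf7. Against control, the pathway genes called went from 4 for LPS, 3 for NMN and 2 for LPS+NMN to 3, 2 and 2 with the replicate block and to 0, 0 and 0 with at least 5 events in 3 libraries. With 1 library left out they ran from 2 to 5, 2 to 3 and 2 to 3, and between treated groups 0 were called under every alternative run. Without a depth, a transcript not listed in a library cannot be called absent from it.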
